A study of Mus musculus with 6 samples.

Results

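The Gadd45 genes were chosen by symbol, and Gadd45a, Gadd45b and Gadd45g, 3 of the 24391 genes in the count tables, make up the family. Transcripts were counted by RNA sequencing in GT1-7 cells, a transformed mouse hypothalamic line that the labels describe as GnRH neuron-like and wild type. All 6 cultures were kept without serum for 12 h. Of these, 3 then received arginine vasopressin (AVP), a hypothalamic peptide hormone, at 200 pg/mL for 6 h, and 3 were controls, for which the labels give both vehicle and untreated. The line is a single transformed cell line and the cultures are named biological replicates, so p-values measure the spread between these cultures. The family was selected with its AVP and control levels known, so its own differences between the groups are given as a description, with no test.

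GADD45 proteins are small acidic proteins with no known enzymatic activity that act by binding others. They bind and activate the kinase MTK1, which feeds the p38 and JNK stress kinases, and they also bind cyclin B1-CDK1, PCNA and the cell cycle inhibitor p21. In DNA demethylation they are adaptors that bring repair and oxidation enzymes to methylated sites. Gadd45a is a classical target of p53 and responds to DNA damage and amino acid stress, Gadd45b is induced by TGF-beta, by NF-kB and by neuronal activity in the mouse hippocampus, and Gadd45g is induced by cytokines and is needed for male sex determination in mice.

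The 250 bases before each RefSeq start site are shown as a description, and their part in the response was not tested. They come from RefSeq on GRCm38.p6, 5′ to 3′ on the strand of the gene, for Gadd45a at chr6:67037408-67037657 (minus strand), Gadd45b at chr10:80929841-80930090 (plus strand) and Gadd45g at chr13:51846425-51846674 (plus strand). All 3 symbols matched 1 entry each. In the GENCODE annotation Gadd45a begins at 67037457 and Gadd45b at 80930073. The last bases of these windows thus lie within the genes as GENCODE places them. Capitals mark matches, on either strand, to the CCAAT box (CCAAT), the TATA box (TATAAA), the octamer (ATTTGCAT) and the E-box (CACGTG).
Gadd45a: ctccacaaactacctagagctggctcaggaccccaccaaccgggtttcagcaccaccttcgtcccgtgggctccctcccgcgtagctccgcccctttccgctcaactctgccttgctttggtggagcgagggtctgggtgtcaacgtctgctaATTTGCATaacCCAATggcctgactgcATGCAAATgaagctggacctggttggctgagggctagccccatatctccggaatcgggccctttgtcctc
Gadd45b: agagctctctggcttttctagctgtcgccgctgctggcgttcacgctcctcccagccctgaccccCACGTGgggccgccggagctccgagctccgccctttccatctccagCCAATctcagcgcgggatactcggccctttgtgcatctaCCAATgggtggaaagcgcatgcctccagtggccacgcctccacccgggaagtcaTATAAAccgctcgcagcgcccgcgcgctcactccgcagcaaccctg
Gadd45g: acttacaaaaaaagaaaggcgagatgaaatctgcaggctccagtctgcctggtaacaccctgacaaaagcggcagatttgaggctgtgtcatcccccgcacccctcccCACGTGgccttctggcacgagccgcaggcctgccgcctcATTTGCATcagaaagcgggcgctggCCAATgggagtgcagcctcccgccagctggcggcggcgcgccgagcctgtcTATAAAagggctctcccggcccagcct
A CCAAT box match stood in all 3 windows, against 33.8% of the 32851 promoter windows of the same length in the table. The TATA box match was in the windows of Gadd45b and Gadd45g and not in that of Gadd45a (12.4% of all windows), and the same held for the E-box match (6.02%). The octamer was matched at 2 places in Gadd45a, as ATTTGCAT and as its reverse complement ATGCAAAT on either side of the CCAAT box, and at 1 place in Gadd45g (1.60% of all windows had a match, and 0.0974% had at least 2).

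Further motifs were searched on both strands. The GC box (GGGCGG) was found in Gadd45a and Gadd45b (32.7% of windows), the C/EBP-ATF site (TGATGNAA) in Gadd45g, where it overlaps the octamer (3.45%), and a p53 half-site in Gadd45a (7.13%). That half-site stands 40 to 31 bases before the RefSeq start, within the Gadd45a gene as GENCODE places it. The CRE (TGACGTCA), AP-1 site (TGANTCA), FOXO site (GTAAACA), SMAD palindrome (GTCTAGAC), NF-kB site and CArG box matched in none of the 3 windows, which says only that these letters are not in them. CG dinucleotides, the positions at which DNA is methylated, numbered 11 in Gadd45a, 22 in Gadd45b and 16 in Gadd45g, against a median of 6 over all windows. Such matches are a description of letters and not evidence of binding.

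Total counts ranged from 34908867 to 37418318 per library, and 14163 genes were tested. Control replicate 1 held 0.995% of its counts on the ribosomal RNA precursor Rn45s, against 0.139 to 0.245% in the other libraries. Each AVP library had more detected genes (16674 to 16739 against 16166 to 16403) and more of the nuclear RNA Malat1 (1499 to 1724 against 499 to 1106 CPM, counts per library size) than any control library. Their part in the results below was not tested. Of 10 neuronal markers 8 averaged at least 1 CPM, while Gnrh1, which defines GnRH neurons, was near the bottom of the measured range at 0.483 ± 0.236 CPM without and 0.417 ± 0.148 CPM with AVP (SD, n = 3), and Stmn2 had 1 count in all. Of 12 markers of glia, fibroblasts and endothelium 3 averaged at least 1 CPM, and the oligodendrocyte marker Mog and the endothelial marker Cldn5 had 0 counts. Summed over that list the level was 49.1 to 55.0 CPM without AVP and 19.9 to 21.6 CPM with it, nearly all of it Mbp. Its part in the results was not tested. In bulk RNA, fewer cells that express a gene and less RNA per cell cannot be told apart.

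The 3 genes went 3 ways with AVP. Gadd45b was about 10 times higher, Gadd45a was about 3 times lower, and Gadd45g was at the same level within the spread of the libraries. The AVP and control libraries did not overlap for 2 of the 3 genes, against 63.4% of all tested genes, a count from which nothing is read because the family was chosen on this contrast.

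Gadd45b (Gadd45-beta, also Myd118; GRCm38 chromosome 10, 80930073 to 80932204, plus strand) was at 4.64, 4.58 and 4.61 CPM in control replicates 1, 2 and 3 and at 51.9, 47.0 and 45.4 CPM in AVP replicates 1, 2 and 3. All AVP libraries were far above all control libraries. The fitted difference was 3.38 on the log2 scale (SE 0.10), a 10.4-fold higher level with AVP. Only 36 of the 14163 tested genes had a higher log2 fold change. The control level in CPM varied by 0.648% of its mean, less than the 7.82% that counting error alone gives at 160 to 168 counts per library, so the narrow control spread understates the uncertainty of that level.

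Gadd45a (chromosome 6, 67035096 to 67037457, minus strand), the founding member of the family, was at 49.5, 44.5 and 41.6 CPM in control replicates 1, 2 and 3 and at 14.0, 12.7 and 14.9 CPM in AVP replicates 1, 2 and 3. Every control library was above every AVP library, and control replicate 1 was the highest. The fitted difference was -1.71 on the log2 scale (SE 0.09), a 3.27-fold lower level with AVP, and without control replicate 1 it was -1.64. A lower log2 fold change was fitted for 184 tested genes. The locus is shared with E230016M11Rik, a noncoding transcript of the opposite strand whose annotated transcripts overlap those of Gadd45a. Of the 50-base stretches in Gadd45a transcripts, 15.6% also occur in that transcript, read on the other strand. Whether counting used strand is not known here, so reads of the overlap cannot be assigned with certainty. E230016M11Rik had 353 counts over the control and 132 over the AVP libraries, against 4816 and 1528 for Gadd45a, and it fell as well (3.33 ± 0.875 to 1.19 ± 0.236 CPM, SD, n = 3; log2 difference -1.48 with SE 0.26, adjusted p = 0.000154).

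Gadd45g (chromosome 13, 51846678 to 51848468, plus strand) was at 62.5, 68.2 and 59.6 CPM in control replicates 1, 2 and 3 and at 64.2, 60.1 and 61.0 CPM in AVP replicates 1, 2 and 3. The groups overlapped, and the AVP libraries lay inside the range of the control libraries. The fitted difference was -0.04 on the log2 scale (SE 0.07).

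**Figure D1:**
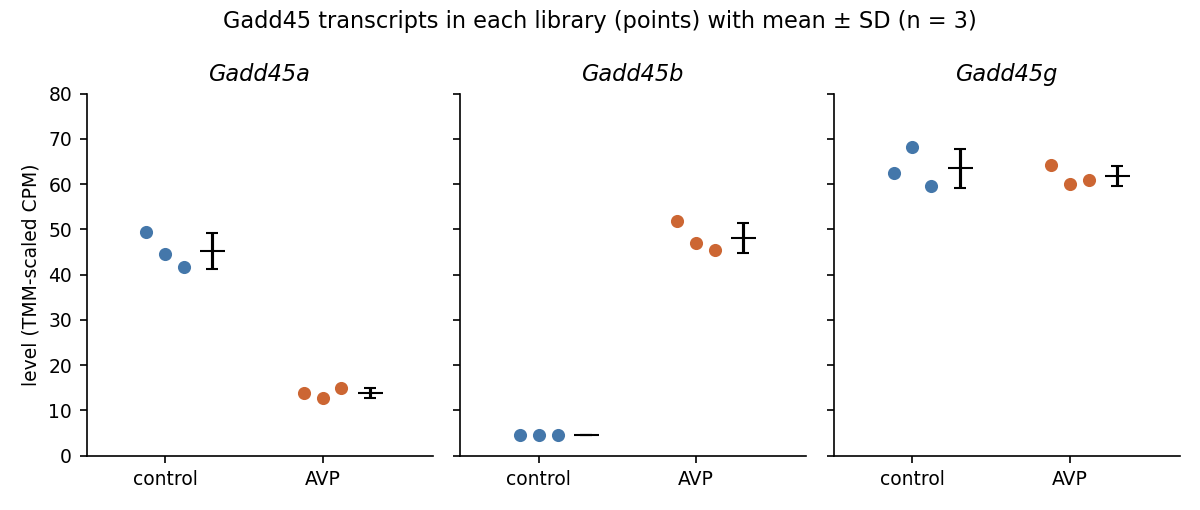
TMM-scaled CPM of Gadd45a, Gadd45b and Gadd45g in each of the 6 libraries (points, replicates 1 to 3 from left to right) with the mean and SD of each group (n = 3). Gadd45a drops from 41.6 to 49.5 CPM to 12.7 to 14.9 CPM, Gadd45b goes from about 4.6 CPM to 45.4 to 51.9 CPM, and the Gadd45g groups overlap.

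No stretch of 50 bases was shared between annotated transcripts of the 3 genes, so reads of that length that match without error belong to 1 member. Each gene has 4 exons in its longest annotated transcript. Per kb of exon, Gadd45g had the highest level in control libraries (54.1 ± 3.75 CPM per kb), Gadd45a the next (25.6 ± 2.27) and Gadd45b the lowest (2.90 ± 0.0188; SD, n = 3), and no 2 of these ranges overlapped. With AVP the order was Gadd45g (52.7 ± 1.86 CPM per kb), Gadd45b (30.3 ± 2.14) and Gadd45a (7.84 ± 0.619), again without overlap. As a share of the family per kb of exon, Gadd45b made up 3.52 ± 0.212% in control and 33.3 ± 1.10% in AVP libraries, and Gadd45a 31.0 ± 2.08% and 8.64 ± 0.713%. Gadd45g supplied the largest share in both groups, 65.5 ± 2.11% and 58.0 ± 0.524%.

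The summed level of the family differed less between the groups than Gadd45a or Gadd45b did. In control replicates 1, 2 and 3 the sum per kb of exon was 84.3, 86.3 and 77.3 CPM per kb, and in AVP replicates 1, 2 and 3 it was 95.3, 88.0 and 89.0 CPM per kb. All AVP libraries were higher than all control libraries. With the longest transcript as the length the groups overlapped (93.2 to 103.7 CPM per kb in control and 103.1 to 111.8 in AVP libraries). In contrast, the ratio of Gadd45b CPM to Gadd45a CPM went from 0.103 ± 0.00858 to 3.49 ± 0.379 (SD, n = 3).

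**Figure D2:**
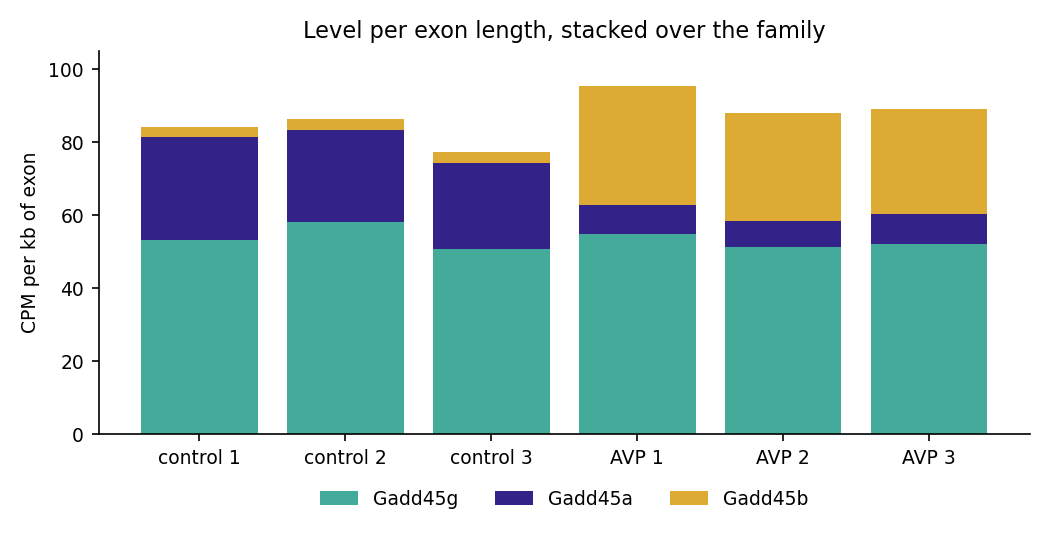
CPM per kb of exon for Gadd45g, Gadd45a and Gadd45b, stacked for each of the 6 libraries. The stacks sum to 77.3 to 86.3 in control and 88.0 to 95.3 in AVP libraries, while the Gadd45a and Gadd45b segments differ in opposite directions.

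The spread of each member within groups was set against that of tested genes within 0.5 log2 units of its mean level over both groups. The SD of log2 CPM within groups was 0.12 for Gadd45a, against a median of 0.10 over 2332 such genes. It was 0.07 for Gadd45b (median 0.10 of 2182 genes) and 0.08 for Gadd45g (median 0.08 of 2580 genes). For Gadd45a and Gadd45b the mean over both groups lies between the levels of the groups, so the band is not centred on either. The SD of Gadd45b also includes the control spread that was below counting error.

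Genes with the most similar pattern were sought by the distance of log2 CPM, less the control mean, over the 6 libraries, among genes averaging at least 5 CPM. Closest to Gadd45b were Sct, the secretin gene, Tmem119, a membrane protein gene, and Atp2b4, a plasma membrane calcium pump gene, at distances of 0.28 to 0.33, and 8 genes lay within a distance of 1. Dse, Leprotl1 and Pawr, the last a proapoptotic regulator, were closest to Gadd45a at 0.20, where 215 genes lay within 1. For Gadd45g the nearest were Chmp7, a membrane remodelling factor, Tsc22d4 and Pcnxl4 at 0.06 to 0.07, and 8433 genes lay within 1. Each member was set against 10653 candidates. The distance depends largely on the log2 fold change, the contrast on which the family was chosen, so nothing is read from these counts.

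Transcripts of the kinases through which GADD45 proteins signal showed few changes, and kinase activity was not measured. Of 12 tested kinases of the MTK1, p38 and JNK cascade 2 rose and 1 fell, or 25.0%, against 57.5% of all tested genes (28.7% higher and 28.8% lower) at an adjusted p under 0.05. The list's median log2 fold change was 0.04, against 0.01 for all tested genes, and its median absolute value was 0.08 against 0.32. This list and those below were drawn up with earlier results of these data known, so these shares are a description. Map3k4, which encodes MTK1, averaged 58.3 ± 3.25 CPM without and 62.0 ± 1.62 CPM with AVP (SD, n = 3; adjusted p = 0.263). Neither Map2k7, the JNK kinase that GADD45-beta binds and inhibits (120 ± 1.90 and 113 ± 4.52 CPM), nor Mapk14, which encodes p38-alpha (153 ± 5.30 and 160 ± 3.20 CPM), passed the threshold.

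Members of the cascade that did change included Mapk10, the neuronal JNK gene, which was at 44.1, 42.7 and 42.1 CPM in control replicates 1, 2 and 3, and rose to 76.9, 76.9 and 69.9 CPM in AVP replicates 1, 2 and 3 (log2 difference 0.80 with SE 0.07, adjusted p = 5.75e-08). Map2k3, a p38 kinase gene, rose by 0.45 on the log2 scale. Mapk13, which encodes p38-delta, fell from 4.81 ± 1.17 to 1.45 ± 0.428 CPM. Mapk8, which encodes JNK1, had a log2 fold change of -0.16 (adjusted p = 0.0620) and Map2k6, a p38 kinase gene, one of 0.04. Without control replicate 1, which carries the most Rn45s, 3 kinases fell, Mapk8 among them (adjusted p = 0.0232). Transcripts of Map2k7 share 32.8% of their 50-base stretches with another annotated gene, so its count is uncertain.

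Of the 6 genes listed around cell cycle and repair partners, 1 rose and 2 fell, with a median log2 fold change of -0.09. Of all tested genes 57.5% were called. Cdkn1a, which encodes p21, rose from 218 ± 9.90 to 267 ± 4.97 CPM (log2 difference 0.29 with SE 0.05, adjusted p = 0.000163). Cdk1, the kinase of mitotic entry that GADD45 proteins inhibit, fell by 0.18. Ccnb2, a gene of a cyclin B other than the bound cyclin B1, fell by 0.60. Ccnb1 (250 ± 21.8 and 246 ± 18.7 CPM) and Pcna, the replication clamp gene (592 ± 7.35 and 595 ± 27.4 CPM), did not pass the threshold. Gadd45gip1, whose product binds GADD45 proteins and serves in the mitochondrial ribosome, was at 65.0 ± 5.27 and 58.2 ± 3.03 CPM (adjusted p = 0.0662). It passed without control replicate 3 (0.0146) or AVP replicate 3 (0.0465). Of the 50-base stretches of Gadd45gip1, Ccnb1 and Pcna, 39.0%, 23.4% and 19.1% occur in transcripts of other genes, which makes their counts uncertain.

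Of 21 listed DNA demethylation genes 16 were tested, and 4 rose and 4 fell (median log2 fold change 0.00). This is close to the share over all tested genes, 28.7% higher and 28.8% lower. The TET genes, which encode the dioxygenases that oxidise methylcytosine, split. Tet1 rose from 24.9 ± 1.75 to 36.0 ± 3.34 CPM and Tet2 from 18.2 ± 3.83 to 28.9 ± 0.766 CPM (log2 fold changes 0.53, SE 0.09, and 0.67, SE 0.12). Tet3 fell from 236 ± 9.90 to 143 ± 7.88 CPM (log2 difference -0.72 with SE 0.06, adjusted p = 3.40e-08).

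Several repair genes of the list were among the changes. Ercc4, which encodes the XPF endonuclease, rose from 7.76 ± 0.369 to 13.6 ± 0.648 CPM (adjusted p = 1.60e-05), and Parp1, a sensor of DNA breaks, rose by 0.47 on the log2 scale. Xrcc1, a scaffold of base excision repair, fell by 0.54, and Taf12, through which GADD45-alpha is known to be recruited to ribosomal RNA gene promoters, fell by 0.35. Tdg, the thymine DNA glycosylase gene of this pathway, had 3 counts over the control and 0 over the AVP libraries, and 41.2% of its 50-base stretches occur in transcripts of other genes. No level is given for it.

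Genes that write, keep or read DNA methylation were called for 6 of 8 members, 3 higher and 3 lower (median log2 fold change -0.05), against 57.5% of all tested genes, 28.7% higher and 28.8% lower. Dnmt1, the maintenance methyltransferase gene, rose from 549 ± 31.1 to 645 ± 20.1 CPM, and Dnmt3a, a de novo methyltransferase gene, from 158 ± 7.69 to 186 ± 6.41 CPM, each by 0.23 on the log2 scale. Dnmt3b rose by 0.54 from 2.82 CPM. Uhrf1, the partner of DNMT1 at hemimethylated sites, fell by 0.22. Mbd2, a methyl-CpG binder gene, fell from 91.9 ± 1.46 to 55.7 ± 3.31 CPM (log2 difference -0.72 with SE 0.06). The call of Dnmt3b was lost when control replicate 2 (adjusted p = 0.133), AVP replicate 2 (0.0555) or AVP replicate 3 (0.0963) was left out. DNA methylation itself was not measured.

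Among 18 transcription factors known to act on a Gadd45 gene, 7 rose and 5 fell, or 66.7% against 57.5% of all tested genes (median log2 fold change 0.12), a count near that background. Of the factors linked to Gadd45a, Atf4, the transcription factor of the amino acid response, fell from 1011 ± 65.3 to 371 ± 23.2 CPM (log2 difference -1.45 with SE 0.06, adjusted p = 2.33e-11). Trp53, which encodes p53, rose from 102 ± 4.92 to 144 ± 3.26 CPM (log2 difference 0.50 with SE 0.05), and Brca1 and Foxo3, both known activators of Gadd45a, rose by 0.36 and 0.58. Foxo4 fell by 0.65. Myc, a known repressor of Gadd45a, and Egr1 had log2 fold changes of 0.12 (adjusted p = 0.302) and -0.40 (adjusted p = 0.0694). Egr1 passed, lower, without control replicate 1 (0.0466) or AVP replicate 3 (0.0297).

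Of the factors linked to Gadd45b and to stress signalling, Jun, an AP-1 subunit gene and JNK substrate, rose from 10.7 ± 2.09 to 26.3 ± 0.604 CPM (log2 difference 1.29 with SE 0.12, adjusted p = 2.44e-07). Smad3, a TGF-beta effector gene, rose from 14.5 ± 1.40 to 19.3 ± 1.28 CPM and Stat3 by 0.28 on the log2 scale. Rela, the NF-kB subunit gene, fell from 196 ± 12.0 to 165 ± 0.955 CPM. Nfkb1 rose by 0.15 with an adjusted p of 0.0477, a call that was lost without any one of the libraries other than AVP replicate 3 (adjusted p from 0.0735 to 0.178). Cebpb fell from 3.93 ± 0.869 to 2.10 ± 0.734 CPM. Transcript levels of these factors do not measure their activity.

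Gadd45a was named together with Ddit3 (Gadd153, the gene of CHOP) and Ppp1r15a (Gadd34, an eIF2-alpha phosphatase regulator) for induction by growth arrest and DNA damage. Both fell with AVP. Ddit3 was at 139, 127 and 119 CPM in control replicates 1, 2 and 3 and at 19.9, 19.7 and 20.8 CPM in AVP replicates 1, 2 and 3. Ppp1r15a was at 163, 138 and 137 CPM and at 34.5, 34.1 and 33.1 CPM in the same order. For both genes all control libraries lay above all AVP libraries. The log2 fold changes were -2.67 (SE 0.07, adjusted p = 4.52e-13) and -2.11 (SE 0.07, adjusted p = 2.99e-12), each a larger difference than that of Gadd45a.

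Of 23 other p53 targets listed 21 were tested, and 12 rose and 5 fell. That is 81.0% called, against 57.5% of all tested genes (28.7% higher and 28.8% lower). The median log2 fold change was 0.76, against 0.01 for all tested genes. Since the list was drawn up with earlier results known, these values are a description. Ccng1, the cyclin G1 gene, rose by 1.79 and Aen, an apoptosis-related nuclease gene, by 0.96 on the log2 scale. Fas, a death receptor gene, rose by 3.65 (SE 0.20) from a low control level. It was at 0.638 ± 0.108 and 8.07 ± 0.0525 CPM (68 and 892 counts over the groups). Sesn2, a stress-inducible gene that also responds to ATF4, fell from 203 ± 8.05 to 60.6 ± 3.48 CPM (log2 difference -1.74 with SE 0.06). Of 15 tested genes of the DNA damage checkpoint 6 rose and 6 fell, against 28.7% higher and 28.8% lower of all tested genes (median 0.04), with Atm and Trp53bp1 rising by 0.58 and 0.61 and Chek2 and Rad9a falling by 0.79 and 0.72.

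Bdnf and Fgf1 are genes at which Gadd45b is known to promote demethylation in the mouse dentate gyrus. Fgf1, a growth factor gene, rose from 0.138, 0.225 and 0.0577 CPM in control replicates 1, 2 and 3 to 1.93, 1.53 and 1.72 CPM in AVP replicates 1, 2 and 3 (15 and 191 counts over the groups; log2 difference 3.58 with SE 0.42, adjusted p = 3.23e-06). Bdnf, the neurotrophin gene, fell from 23.0 ± 1.41 to 17.6 ± 1.16 CPM (log2 difference -0.39 with SE 0.09, adjusted p = 0.00234). The pair moved in opposite directions. Of the 50-base stretches of Bdnf, Uhrf1, Cebpb and Trp53bp1 12.7%, 15.4%, 18.1% and 13.7% occur in transcripts of other genes, and their counts are uncertain to that extent.

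**Figure D3:**
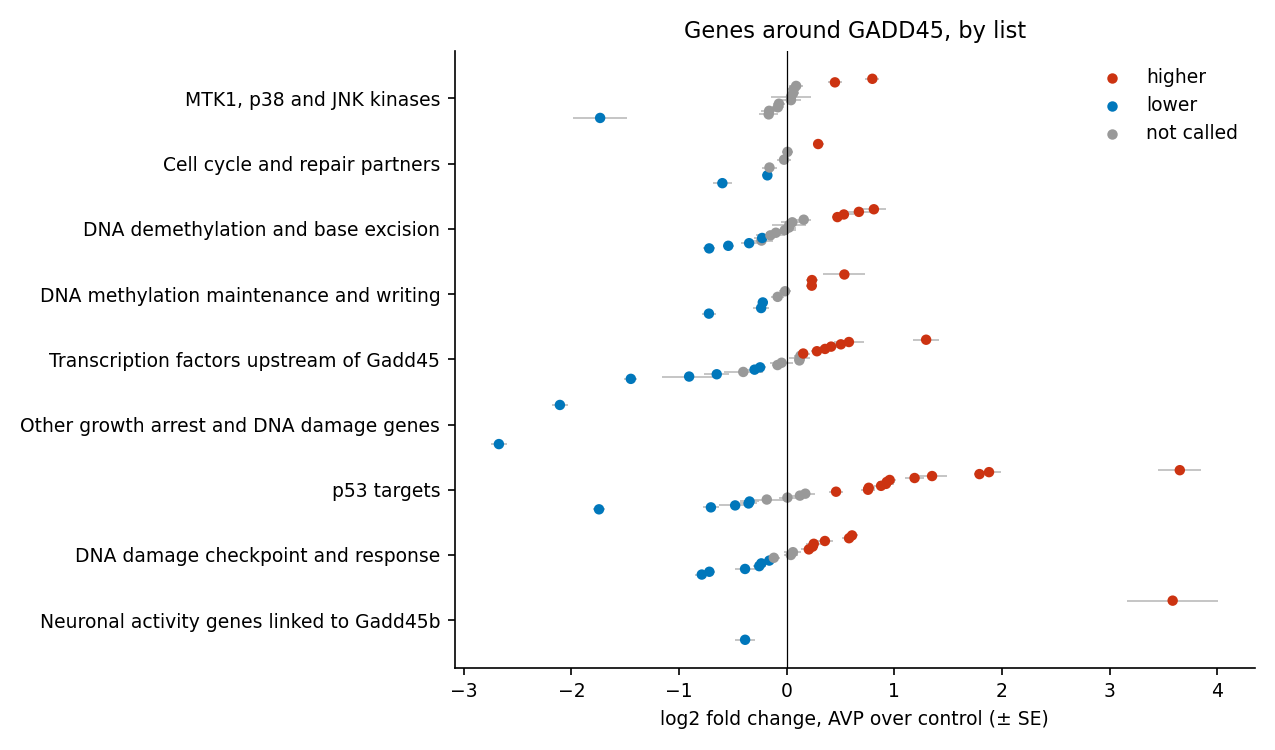
Log2 fold change (AVP over control, ± SE) of each tested gene in the 9 lists, with 1 point per gene coloured by its call at an adjusted p under 0.05. The MTK1, p38 and JNK kinases gather near 0 apart from 3 called genes, the p53 targets lie mostly to the right, and Ddit3 and Ppp1r15a lie far to the left.

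Genes near the Gadd45 genes were compared to see whether the changes extended along the chromosome. Of 63 tested genes with a start site within 500 kb, 15 rose and 26 fell, or 65.1% against 57.5% of all tested genes. More of them fell than rose, while of all tested genes 28.7% were higher and 28.8% lower. When a library was left out, 11 to 15 rose and 21 to 27 fell. A difference of at least 1 on the log2 scale was seen in 7 of the 63, while 10.6% of all tested genes had one. Around Gadd45b 53 genes were tested, with log2 fold changes of -1.68 to 1.44 and a median of -0.05, all below the 3.38 of Gadd45b. Its nearest tested neighbours were Lmnb2, a nuclear lamin gene with a start site 11.8 kb away, which rose by 0.23 (adjusted p = 0.00557), and Gng7, a G protein subunit gene 84.9 kb away, at 0.18 (adjusted p = 0.320).

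Gadd45a had 5 tested neighbours, of which 3 fell and none rose (60.0% called, against 57.5% of all tested genes). Of all tested genes 28.8% were lower, and 5 genes are too few to read a share from. Among the 3 that fell, 1 is E230016M11Rik, and another had only 39 counts over the control and 14 over the AVP libraries. Beside E230016M11Rik, the nearest were Gng12, another G protein subunit gene 141 kb away, with a log2 fold change of -0.20 (adjusted p = 0.0207), and Serbp1, an RNA-binding protein gene 201 kb away, at 0.04. The call of Gng12 did not hold when control replicate 1 (0.102), AVP replicate 2 (0.0654) or AVP replicate 3 (0.0583) was left out. Gadd45g also had 5 tested neighbours, of which 2 rose and 1 fell, again 60.0% against 57.5%. The nearest, the semaphorin gene Sema4d 52.9 kb away, had a log2 fold change of 0.13 (adjusted p = 0.214).

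**Figure D4:**
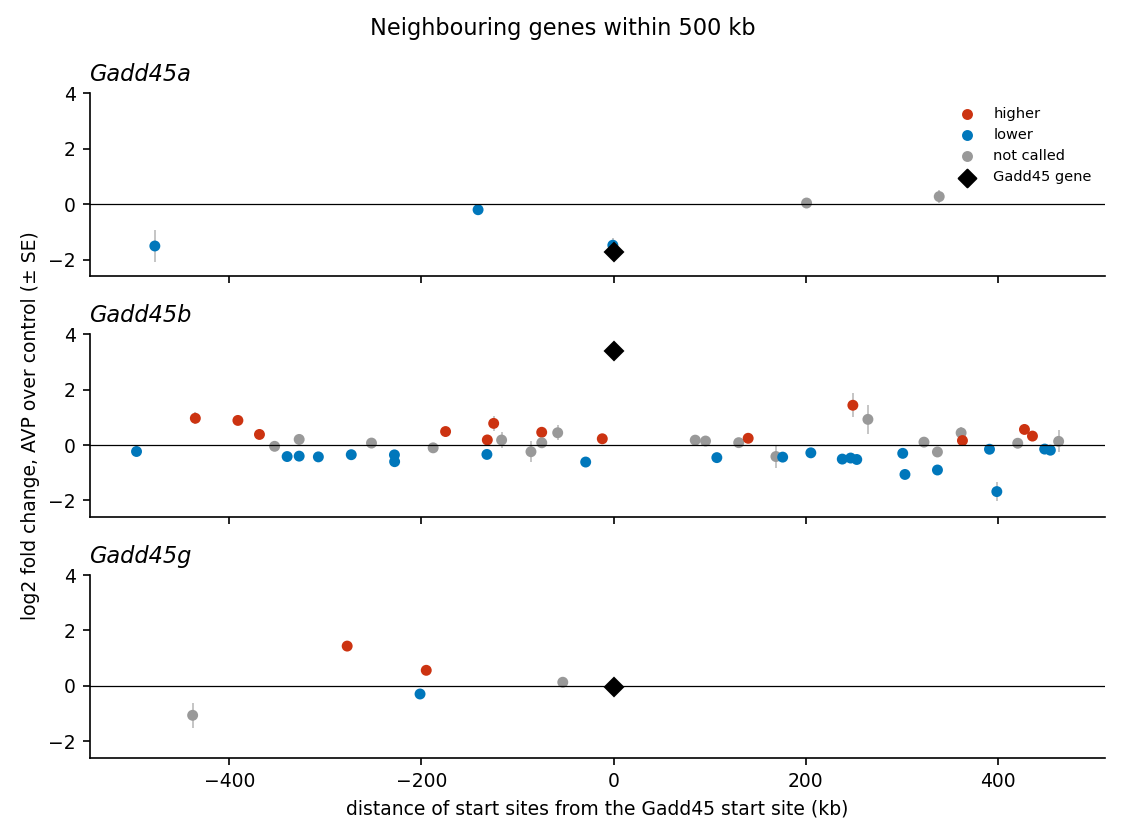
Log2 fold change (AVP over control, ± SE) of tested genes against the distance of their start sites from that of each Gadd45 gene, with the Gadd45 gene as a black diamond at 0 kb. The diamond of Gadd45b at 3.38 stands above its 53 neighbours, which lie between -1.68 and 1.44.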

How the data were processed

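The authors deposited 1 table per library of whole-number counts per gene symbol, without normalization. Per the submitters' processing notes, the builds were mm10 and GRCm38. For the aligner, counter, annotation and strand setting, the sources used here name nothing. In 27 rows a date stands in place of the symbol, and these were kept as unnamed rows. No row was left without a name otherwise, and no columns of other samples were present.

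Counts were filtered with filterByExpr (minimum count 10), scaled with TMM factors and fitted with edgeR 4.0.16 in R 4.3.3 (robust quasi-likelihood F test, no covariates, Benjamini-Hochberg at 0.05 over all 14163 tested genes). Log2 fold changes give AVP over control, with an SE equal to their size over the square root of F. All CPM values use the TMM factors except those of Malat1 and Rn45s per library, which use the total counts. Counting error is 1 over the square root of the mean count and covers counting error only.

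The members and gene lists were chosen with earlier results of these data known. The text names the members, a fixed set of partners and regulators, up to 4 further genes of each list with the smallest p, the 3 genes most similar to each member and the nearest tested neighbours. Genes named to give markers or an overlap at a locus fall outside that rule. A gene it selects is not reported here. One listed symbol matched no row. Exon lengths (union of exons), positions and shared 50-base stretches come from GENCODE M21 (GRCm38). Promoter windows come from RefSeq. Alternatives were DESeq2 1.42.0, limma-voom (limma 3.58.1), library size alone, RLE factors, a filter at a mean of 50 counts, no filter, the replicate number as a block, each library left out in turn and the longest transcript as the length. Python 3.11.15, pandas 2.3.3 and matplotlib 3.10.9 handled tables and plots. Counts of replicates differed by more than sampling noise (chi-square per degree of freedom of at least 7.17), so none was counted as a duplicate.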

Additional observations from a re-analysis of the deposited data

How the results depend on the processing

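Under the 7 other fits and with each library left out, the log2 fold change stayed between -1.78 and -1.64 for Gadd45a, between 3.32 and 3.42 for Gadd45b and between -0.09 and 0.01 for Gadd45g. With the longest transcript as the length, Gadd45a made up 37.0% of the family in control and 10.6% in AVP libraries, Gadd45b 35.2% in AVP libraries, and Gadd45g 59.4% and 54.2%, with the order of the members as before. Over all genes, 3525 to 4053 were higher and 3592 to 4166 lower when a library was left out. Same-numbered AVP and control libraries showed little shared deviation (correlations of deviations -0.05 to 0.08). With 3 libraries per group this cannot exclude pairing, and the samples were treated as unpaired. In the fit with the replicate block 3972 genes were higher and 3969 lower, against 4063 and 4084 without it, 2 kinases of the MTK1 list fell and Nfkb1 was not called (adjusted p = 0.0706). Nfkb1 also lost its call with DESeq2 (0.0600), RLE factors (0.0546) and no filter (0.0798). Of 67 named genes 60 kept their call in every alternative that tested them, 4 lost it and 3 gained it in at least 1, and none reversed. With a mean of at least 50 counts Fgf1 was not tested. With 160 to 168 control counts per library, the control level of Gadd45b is limited by depth.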
